A study of Mus musculus with 6 samples.

Results

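The retinoic acid receptor-related orphan receptors *Rora* and *Rorb* were followed across striatal astroglia as they matured. Both genes were taken by name from a table of UMI counts (unique molecular identifiers, 1 per captured transcript), and they are 2 of its 32285 genes. The cells came from the striatum of wild-type male C57BL/6 mice, dissected without the subventricular zone, and were enriched with magnetic beads against ACSA2, an astrocyte surface antigen. One group was at postnatal day 3 (P3) and the other at 3 months of age (3m), with 3 droplet 3′ single-cell libraries each, and no other allele or treatment set them apart. Tissue from several animals was pooled in every preparation, so values for single animals were not analysed here.

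RORα (from *Rora*) and RORβ (from *Rorb*) are nuclear receptors that bind DNA as monomers at the core letters AGGTCA preceded by an A/T-rich stretch, and they generally activate transcription there. Their ligand pockets can hold sterols or retinoids. The REV-ERB receptors, encoded by *Nr1d1* and *Nr1d2*, repress from the same sites, which ties the family to the circadian clock. In the brain, RORα is best known from cerebellar Purkinje cells and RORβ from the retina and from sensory areas of the cortex. The study itself named ROR factors as candidates in astrocyte maturation, partly from these libraries, so their direction here is not independent evidence of that choice.

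Of 16690 barcodes, 14373 were kept as cells and 9992 of those were astroglial, 8874 at P3 and 1118 at 3m. Astroglial sums per library held 22327104 to 30617140 UMIs at P3 and 1157485 to 1843998 at 3m, which leaves lower counts behind each 3m value. Several astroglial sub-clusters came almost wholly from 1 library: 1156 of the 1211 cells of sub-cluster 1 were from P3 replicate 1, 719 of the 735 cells of sub-cluster 4 and 273 of the 284 cells of sub-cluster 12 were from P3 replicate 3, and 182 of the 184 cells of sub-cluster 14 were from 3m replicate 1. In sub-clusters 13 and 16, which hold 3m cells, 168 of 202 and 89 of 121 cells were from 3m replicate 2. All 8 astroglial markers, from *Sox9* to *Fgfr3*, were detected in the astroglia of every library. Libraries shared 37 barcode sequences, carried by 64 of the kept cells. The age differences of both genes in all astroglia were calls with and without sub-clusters 1, 4 and 12, and with and without those shared barcodes.

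*Rora* (ENSMUSG00000032238.17) spans chr9:68653786-69388246 on the plus strand of GRCm38, and *Rorb* (ENSMUSG00000036192.15) spans chr19:18930605-19111196 on the minus strand. An antisense gene, *Gm15511*, overlaps an exon of *Rora*, and it had 0 UMIs in the whole table. No annotated gene overlaps *Rorb*. The 250 bases before each annotated start were read from RefSeq's GRCm38.p6 table and are printed 5′ to 3′ on the strand of the gene, because the start sites of the pair differ in base composition. For *Rorb* there are 2 RefSeq starts, and 3′ counts do not separate transcripts from them. Capitals mark matches to GGGCGG or CCAAT, all of them in the outer *Rorb* window and on the opposite strand (CCGCCC and ATTGG).
Rora start, chr9:68653536-68653785, plus strand: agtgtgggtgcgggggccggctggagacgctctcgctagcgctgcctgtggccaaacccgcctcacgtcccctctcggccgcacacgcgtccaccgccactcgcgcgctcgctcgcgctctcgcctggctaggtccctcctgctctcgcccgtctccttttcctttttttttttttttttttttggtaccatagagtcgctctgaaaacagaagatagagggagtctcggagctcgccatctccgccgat
Rorb outer start, chr19:19111197-19111446, minus strand: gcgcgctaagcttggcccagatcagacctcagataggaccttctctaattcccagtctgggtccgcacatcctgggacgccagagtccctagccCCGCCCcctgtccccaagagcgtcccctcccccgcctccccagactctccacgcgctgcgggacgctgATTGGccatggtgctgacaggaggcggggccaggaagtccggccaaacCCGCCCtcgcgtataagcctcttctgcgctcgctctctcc
Rorb inner start, chr19:19001118-19001367, minus strand: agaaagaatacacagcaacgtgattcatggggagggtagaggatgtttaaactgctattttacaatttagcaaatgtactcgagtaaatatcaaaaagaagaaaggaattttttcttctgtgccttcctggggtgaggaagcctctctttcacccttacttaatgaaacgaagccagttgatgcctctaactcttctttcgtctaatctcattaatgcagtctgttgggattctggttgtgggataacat

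The windows before the *Rora* start and the outer *Rorb* start were 61.2% and 66.0% G+C with 26 and 18 CpG sites, whereas the window before the inner *Rorb* start was 39.2% G+C with 4. The median RefSeq promoter was 52.4% G+C with 6 CpG sites. The outer *Rorb* window held GGGCGG at 156 and 40 bases before the start and CCAAT at 88, and these motifs occur in 35.7% and 37.4% of 32851 RefSeq promoters (250 bases before to 50 after the start, both strands). The core letters AGGTCA, held by 16.3% of promoters (a share that includes every promoter with the extended form TAGGTCA), were not found in the 3 windows on either strand. The same held for the related form TGGGTCA (3.98% of promoters), for the clock E-box CACGTG (7.15%) and for the TATA box letters TATAAA (13.6%). A match describes letters only.

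Across cell types, *Rorb* was almost restricted to astroglia while *Rora* was spread more widely. Astroglia held 97.1% of the 26884 *Rorb* UMIs in cells and 72.2% of the 4791 *Rora* UMIs, with 67.0% of all UMIs. The clusters are those of the study, made from all genes of these cells, so their levels are a description with no test. Levels are CPM, the UMIs of a gene per 1000000 UMIs summed in that cluster and library, for libraries with at least 20 cells there.

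Among 3m clusters, *Rorb* stood at 1096 ± 71.9 CPM in the main astrocyte cluster AST_3m_5 (SD, n = 3) and at 586 CPM in AST_3m_14 (508 and 664 in its 2 libraries). It was next highest in LOW_21, a cluster the study left unidentified, at 81.5 ± 41.5 CPM (n = 3, on 11 UMIs). The ranges of these 3 clusters did not overlap. In LOW_21, 6 markers of mural cells (1 of them at 0) summed to 42085 CPM, against 15822 in the pericyte cluster PER_6. Oligodendrocytes (ODC_2 and ODC_10), microglia (MIC_16) and endothelial cells (END_17) lay between 11.1 and 26.2 CPM, and within that set MIC_16, ODC_10 and END_17 overlapped. In P3 libraries, the astrocyte clusters AST_P3_0, AST_P3_15, AST_P3_11, AST_P3_1 and AST_P3_4 ran from 371 ± 42.5 down to 269 ± 47.4 CPM (n = 3 and n = 2) with each neighbouring pair overlapping. A lower tier of AST_P3_3 and the glial progenitor clusters GPC_8 and GPC_9 lay between 200.3 and 176 CPM. END_12, labelled endothelial, had 137 CPM in P3 replicate 3, which held 346 of its cells, and astroglial markers summed to 14640 CPM in the same cells. The lowest mean was in the endothelial cluster END_7, at 6.80 ± 1.52 CPM (n = 3).

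*Rora* was not restricted to astroglia in this way, since endothelial cells reached the astrocyte level at 3m. There, AST_3m_14 was at 106 CPM (105 and 106 in its 2 libraries), and endothelial END_17 (84.5 ± 4.77 CPM, n = 3), AST_3m_5 (84.0 ± 1.42, n = 3) and LOW_21 (82.7 ± 12.2, n = 3, on 12 UMIs) followed with overlapping ranges. For *Rora* the endothelial and the main astrocyte ranges overlapped, while for *Rorb* the endothelial mean was 11.1 CPM. The 8 astroglial markers summed to 473 CPM in END_17 against 14972 to 15713 in 3m astroglia. Mural markers (6 genes) summed to 6638 CPM in END_17, near the 7711 of the 5 endothelial markers, so its *Rora* cannot be assigned to endothelial cells alone. Below these came a gap with no overlap, to the oligodendrocyte clusters at 25.3 and 19.9 CPM and microglia at 9.88 (0 and 19.8 in 2 libraries). At P3, below neurons and the unidentified LOW_23 (73.5 CPM in 1 library), the order ran from AST_P3_15 at 73.3 ± 18.1 CPM down to GPC_8 at 18.5 ± 2.65 (n = 3 each), and every neighbouring pair on that stretch had overlapping ranges. Microglia lay below all of it with no overlap, at 5.65 ± 4.08 CPM (n = 3).

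**Figure D1:**
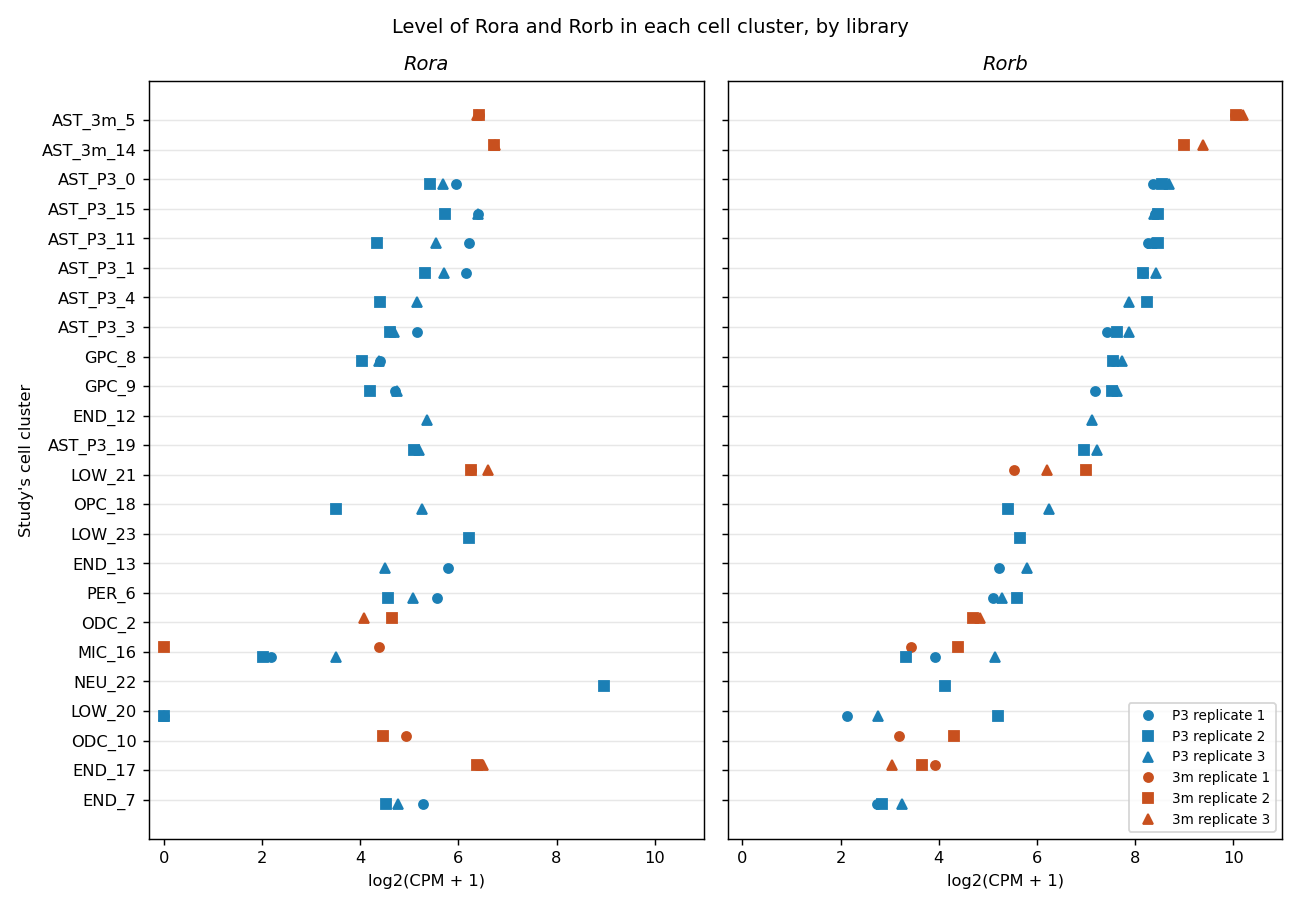
Level of *Rora* and *Rorb* as log2(CPM + 1) in each cluster, 1 point per library with at least 20 cells, coloured by age. In CPM, *Rorb* points of the 3m astrocyte clusters lie at 508 or above and those of other 3m clusters at 127 or below, whereas *Rora* in 3m endothelial cells (81.7 to 90.0) lies among the 3m astrocyte points.

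The highest *Rora* value of any cluster was in P3 neurons. NEU_22 had 502 CPM in P3 replicate 2, the only library with at least 20 of its cells. Of the 121 UMIs behind it, 113 came from 5 of the 23 cells, and 1 cell held 41. The other P3 libraries had 3 *Rora* UMIs in 14 NEU_22 cells (replicate 1) and 0 in 16 cells (replicate 3). *Rorb* in the 23 cells of replicate 2 was at 16.6 CPM. The *Rora* level of NEU_22 rests on that library and those few cells.

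How the pair changes between immature and mature astrocytes was read from the 2 ages. In summed astroglia, both genes rose from P3 to 3m, *Rora* 2.52-fold and *Rorb* 3.93-fold. The *Rora* level was 49.5, 31.0 and 41.0 CPM in the P3 libraries (1106, 949 and 1007 UMIs) and 86.4, 93.3 and 86.2 CPM in the 3m libraries (100, 172 and 127 UMIs). For *Rorb* it was 262, 273 and 309 CPM at P3 and 1007, 799.9 and 1105 CPM at 3m. The ages did not overlap for either gene, and P3 replicate 2 was lowest of all for *Rora*. A higher *Rora* level at 3m was not particular to astroglia, since clusters labelled endothelial had it too. END_17 (3m) was at 81.7 to 90.0 CPM, against 22.1 to 37.7 in END_7, 21.6 to 54.6 in END_13 and 40.4 in END_12 (1 library) at P3. These are different clusters, and their difference was not tested. The log2 fold change was 1.33 (SE 0.18, adjusted p = 4.67e-05) for *Rora* and 1.97 (SE 0.20, adjusted p = 4.28e-06) for *Rorb* by edgeR's quasi-likelihood test with Benjamini-Hochberg adjustment. Calls needed an adjusted p no greater than 0.05 together with a change of 1 or more on the log2 scale, and 15.8% of the 13530 genes tested were called higher. Of all genes tested, 87.6% had a lower log2 fold change than *Rora* and 93.3% a lower one than *Rorb*. In sums over cells, fewer cells with a transcript and less RNA per cell cannot be told apart, and p-values measure the spread between preparations.

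Markers of other cells moved with age in the same sums. Oligodendrocyte markers (7 genes) summed to 5.59 to 6.54 CPM in P3 astroglia and to 709.7 to 1872 in 3m astroglia. Oligodendrocyte clusters themselves had at most 29.4 CPM of *Rora* and 27.6 of *Rorb* in libraries with at least 20 of their cells, below every astroglial sum. Without cells that carried at least 3 of the 7 markers, the log2 fold changes were 1.27 for *Rora* and 2.05 for *Rorb*. The summed astroglial markers were lower at 3m (14972 to 15713 CPM) than at P3 (23881 to 29047), and the 3 cycling markers summed to 350.2 to 455 CPM at P3 and to at most 0.542 at 3m. Without cycling cells the log2 fold changes were 1.13 for *Rora* and 1.83 for *Rorb*.

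Shares of cells showed the same order when each astroglial cell was thinned to 2000 UMIs. *Rorb* was seen in 42.0, 41.5 and 47.7% of such cells at P3 and in 81.7, 73.3 and 85.9% at 3m. *Rora* was seen in 10.5, 6.73 and 8.81% at P3 and in 13.2, 17.5 and 15.1% at 3m. Counting intervals (95%, Wilson) were 9.17 to 18.6% for the smallest library, 3m replicate 1, and 9.24 to 11.98% for P3 replicate 1, so these 2 libraries overlap for *Rora* in counting error. The ages differed by 36.6 percentage points for *Rorb*, 6.60 for *Rora* and 8.43 for cells with both (p = 0.1 each, exact permutation test, two-sided, the smallest p that 3 against 3 libraries can give). Deep enough for this were 1937 of 1985, 2985 of 3103 and 2839 of 3786 P3 cells and 197 of 213, 405 of 546 and 304 of 359 3m cells. Without thinning the *Rora* share was 26.5% at P3 and 28.0% at 3m (p = 0.8, exact permutation test, two-sided), at median depths of 5456 to 9665 and 2977 to 5326 UMIs per astroglial cell.

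A background share, which free RNA or the cells' own transcripts can give, was read from oligodendrocytes at 3m. Microglia, the cell type planned for this, had 20, 23 and 17 cells there. Oligodendrocytes held 275 *Rora* and 225 *Rorb* UMIs, where all kept 3m cells held 812 and 4540. How much of either is free RNA was not tested. In thinned oligodendrocytes *Rorb* was seen in 1.48, 3.09 and 3.13% of cells and *Rora* in 5.27, 3.38 and 3.52% (3m replicates 1 to 3, median depths of 4530 to 8484 UMIs). Each 3m astroglial share exceeded the oligodendrocyte share of its gene in every library. Too few oligodendrocytes were present at P3, so microglia were read there (median depths of 5356 to 6523 UMIs). *Rora* was seen in 0 of 27, 43 and 35 thinned P3 microglia, which allows a share of up to 11.1, 6.98 and 8.57% in replicates 1 to 3, and *Rorb* in 0 of 27, 0 of 43 and 2 of 35. The P3 astroglial *Rora* shares were under that limit in replicates 1 and 2, so these shares were not separated from background at this depth. The *Rorb* shares were far above that limit. In unthinned sums, P3 *Rora* was at 3.56, 3.04 and 10.4 CPM in microglia (1, 1 and 3 UMIs). Astroglia were at 49.5, 31.0 and 41.0 CPM, and the counting intervals (95%, exact Poisson) overlapped in no replicate. Among thinned astroglia with *Rorb*, 7.43 to 11.5% also had *Rora* at P3 and 14.3 to 17.8% at 3m, and among those without *Rorb* the figures were 6.24 to 9.80% and 8.33 to 16.7%. *Rora* was thus slightly more frequent among cells with *Rorb* in 5 of 6 libraries, which is a description with no test. Most cells have no *Rora* UMI at this depth, so these shares cannot show how closely the genes go together. In 3m replicate 1 the cells without *Rorb* were 3 with *Rora* and 33 with neither.

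The number of *Rorb* UMIs per *Rora* UMI, which does not depend on scaling between libraries, was 5.30, 8.82 and 7.55 at P3 and 11.7, 8.58 and 12.8 at 3m. The ages overlapped, since 3m replicate 2 lay below P3 replicate 2. On the log2 scale the ratio was higher by 0.62 at 3m (p = 0.2, exact permutation test, two-sided). In telencephalic sub-clusters alone it was 5.15, 8.60 and 7.65 at P3 and 12.5, 12.9 and 14.4 at 3m, with no overlap, a difference of 0.92 (p = 0.1, exact permutation test, two-sided, again the smallest possible). In non-telencephalic sub-clusters the ratio lay the other way, at 4.18, 8.27 and 6.70 at P3 and 2.25, 4.89 and 6.04 at 3m (the first of these on 18 and 8 UMIs). The ages overlapped there, with a log2 difference of -0.60 (p = 0.4, exact permutation test, two-sided). A larger change of *Rorb* than of *Rora* was thus not separated from library spread in all astroglia.

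Astroglial sub-clusters of the study divide by age and by their likeness to reference astrocytes of known brain region. Sub-clusters 7 and 14 (3m) and 0, 1, 2, 9 and 11 (P3) are grouped here as the telencephalic lineage, and 13 and 16 (3m) and 3, 4, 5, 10 and 12 (P3) as non-telencephalic. Sub-clusters 6 and 8 are cycling cells. Sub-cluster 15 (P3), which the study also set with the non-telencephalic ones, was left out of the group. It was taken to be multiciliated, but no marker of cilia was read for this sub-cluster. The result with it added is given beside the test it changes. The regional names are the study's tentative match, not a dissection. At 3m the order of the sub-clusters by mean level was opposite for the pair. *Rorb* was at 1123 CPM in sub-cluster 7 and 1049.7 in 14, against 645 in 13 and 248.8 in 16. *Rora* was at 82.1 CPM in 7 and 84.4 in 14, against 110.0 in 13 and 113 in 16. None of the neighbours in the 3m orders overlapped, although sub-clusters 14 and 16 had 1 library each. For *Rora* the counting intervals overlapped, at 69.1 to 175 CPM in sub-cluster 16 (95%, exact Poisson, 20 UMIs) and 67.2 to 100.03 in 3m replicate 3 of sub-cluster 7, so its order lies within counting error. Oligodendrocyte markers summed to 12133 CPM in sub-cluster 16, to 835 and 1412 in 13 and to at most 357 in 7 and 14. At P3 sub-cluster 1 had the highest means for both genes, 84.9 ± 26.1 CPM of *Rora* and 479.8 ± 157 of *Rorb* (n = 3), but replicates 2 and 3 gave it only 29 and 26 cells. The cycling sub-clusters 6 and 8 were lowest for *Rora* (18.8 and 21.9 CPM), and for *Rorb* they, sub-cluster 2 and sub-cluster 15 had the lowest means (150.5 to 195 CPM).

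**Figure D2:**
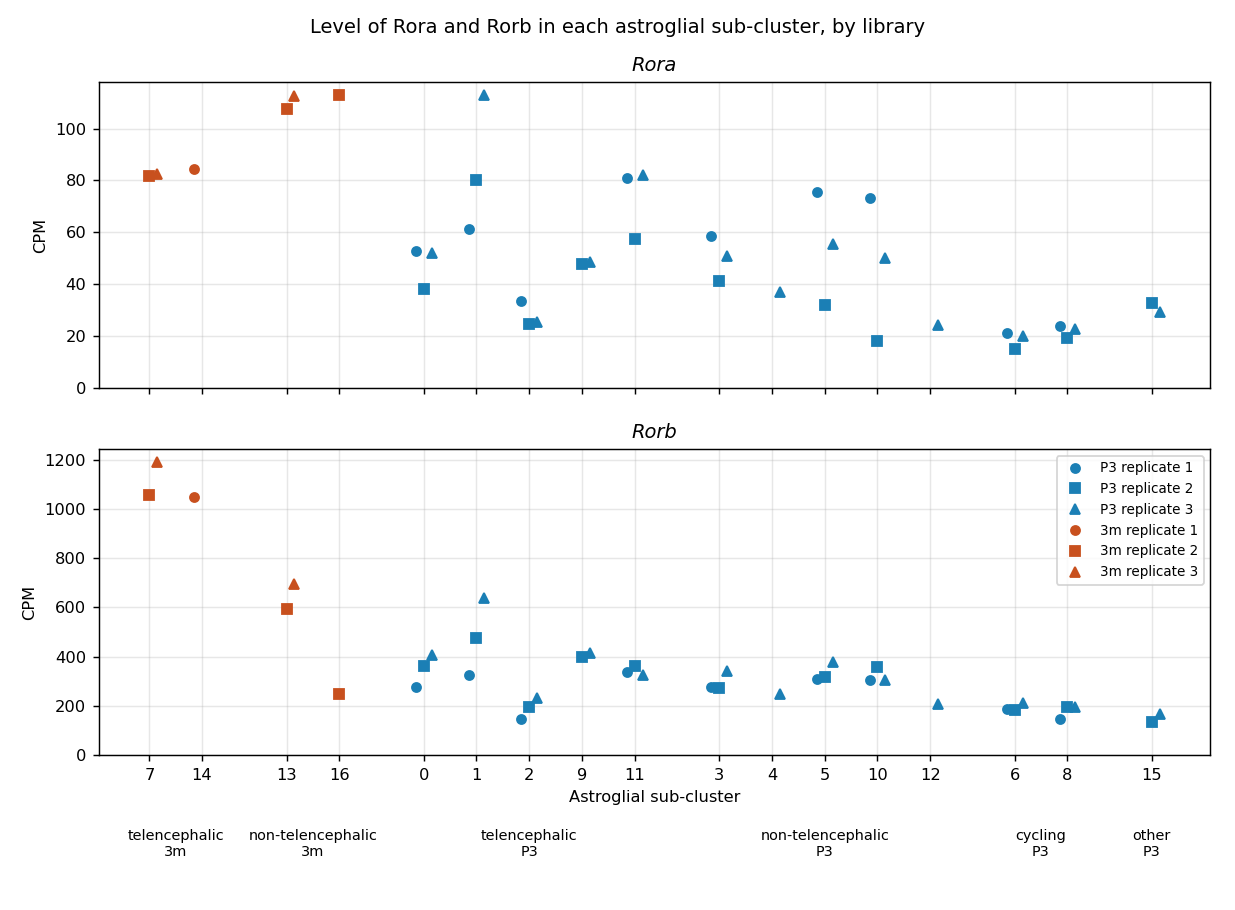
CPM of *Rora* and *Rorb* in the astroglial sub-clusters, 1 point per library with at least 20 cells, grouped by age and by region. At 3m, *Rorb* is higher in telencephalic sub-clusters 7 and 14 (1049.7 to 1189) than in 13 and 16 (248.8 to 697), and *Rora* is lower (81.8 to 84.4 against 107 to 113).

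The change with age was then fitted within each region. Both genes rose in both regions, but *Rorb* rose less outside the telencephalic lineage. Sub-clusters were made from the expression of all genes, so the regional split is not independent of these genes. In telencephalic cells *Rorb* was at 297, 309.9 and 359.9 CPM at P3 and at 1047, 1052 and 1193 CPM at 3m, a log2 fold change of 1.97 (SE 0.19, adjusted p = 1.95e-08, edgeR). *Rora* was at 57.7, 36.1 and 47.0 CPM at P3 and at 83.9, 81.5 and 82.9 CPM at 3m, a log2 fold change of 1.03 (SE 0.18, adjusted p = 4.72e-05, edgeR). Neither gene's ages overlapped, and 15.4% of 12335 genes were called higher in this set. The *Rora* call sits at the fold threshold, and without P3 replicate 2, 3m replicate 2 or 3m replicate 3 its log2 fold change was 0.93, 0.99 or 0.97 and was not a call.

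Outside the telencephalic lineage *Rora* was at 70.9, 35.7 and 48.1 CPM at P3 and at 130.2, 106 and 104 CPM at 3m, again with no overlap. *Rorb* was at 296, 295 and 322 CPM at P3 and at 293, 520.4 and 629 CPM at 3m. The first of the 3m values comes from 17 cells and 18 UMIs of replicate 1 and lies just under the P3 libraries, so for *Rorb* the ages overlapped. The log2 fold changes were 1.49 (SE 0.27, adjusted p = 6.29e-05, edgeR) for *Rora* and 1.05 (SE 0.28, adjusted p = 0.00386, edgeR) for *Rorb*, where 28.4% of 8499 genes were called in either direction. Without P3 replicate 1, 2 or 3 the value for *Rorb* was 0.83, 0.90 or 0.89 and not a call. Without 3m replicate 2 or 3 it was 0.93 or 0.80 (adjusted p = 0.0683 and 0.0721, edgeR).

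The region-by-age term, fitted with library as a block, compares the 2 age differences directly. For *Rorb* the age difference was smaller outside the telencephalic lineage by 1.05 on the log2 scale (log2 term -1.05, SE 0.22, adjusted p = 0.000892, edgeR), a call just past the fold threshold in a direction that 8.08% of 10502 genes reached. For *Rora* the term was 0.33 (SE 0.21, adjusted p = 0.32, edgeR) and was not a call. Oligodendrocyte markers moved with the *Rorb* term: they summed to 23394, 3553 and 2852 CPM in 3m non-telencephalic cells and to 204, 356 and 312 in 3m telencephalic cells. At least 3 of the 7 markers were seen in 130 of 328 and in 20 of 790 of those cells. With such cells removed the *Rorb* term was -0.83 (adjusted p = 0.00394, edgeR), without 3m replicate 1 it was -0.89, and with sub-cluster 15 added it was -0.95 (adjusted p = 0.00113, edgeR), in each case short of the fold threshold.

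**Figure D3:**
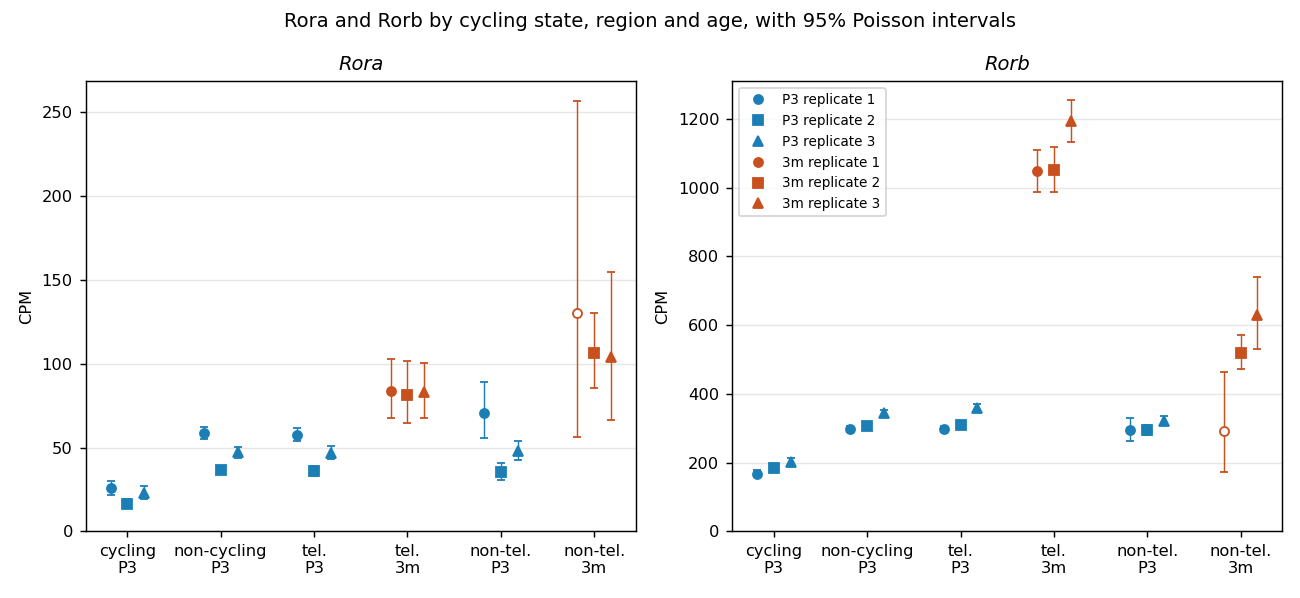
CPM of *Rora* and *Rorb* per library (point, with its 95% Poisson counting interval) in cycling and other P3 astroglia and in telencephalic (tel.) and non-telencephalic (non-tel.) astroglia at each age. Open symbols mark 3m replicate 1 outside the telencephalic lineage (17 cells), where *Rorb* was at 293 CPM. *Rorb* at 3m reaches 1047 to 1193 in telencephalic and 293 to 629 in non-telencephalic cells.

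Within P3, cycling cells were compared with the remaining astroglia of the same library. Cells counted as cycling had UMIs in at least 2 of *Mki67*, *Top2a* and *Cdk1*, which left 1312 cycling and 7562 other cells. *Rora* was at 25.9, 16.6 and 23.0 CPM in cycling cells and at 58.6, 36.6 and 47.1 CPM in the rest. *Rorb* was at 167, 185 and 202 CPM against 299, 308 and 346. Each gene was lower in the cycling cells of all 3 libraries. *Rora* fell by 1.02 on the log2 scale (SE 0.08, adjusted p = 6.72e-08, edgeR) and was called, as 8.41% of 13726 genes were in that direction. The log2 difference of *Rorb*, -0.69 (SE 0.05, adjusted p = 4.83e-08, edgeR), passed the p but not the fold threshold. Without P3 replicate 1 the *Rora* value was -0.97 and no longer a call.

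A deposited pseudotime score orders 5879 astroglial cells along the path that ends in the 3m telencephalic sub-clusters, and its range is cut into 20 equal bins. Of these cells, 90.3% are in telencephalic or cycling sub-clusters, and the rest are in others. The score was built from all genes, so the levels along it are a description. From bins 2 to 11 *Rorb* stayed between 130.4 and 214 CPM and *Rora* between 6.41 and 27.5 CPM. Both then increased in step over the last P3 bins. In bins 12, 13 and 14 *Rora* averaged 30.0, 43.1 and 55.7 CPM and *Rorb* 227, 318 and 389 CPM. Each P3 library had more of both genes in bin 14 than in bin 3, from 11.8 to 68.6, 9.61 to 43.6 and 12.5 to 55.0 CPM for *Rora* and from 169 to 325, 171 to 415 and 208 to 425 for *Rorb*.

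The 3m libraries with at least 20 cells in a bin lay in bins 16 to 19, where *Rora* lay between 74.4 and 87.9 CPM and *Rorb* between 945 and 1113. Neither gene had a steady direction within those bins. P3 and 3m libraries shared no bin with at least 20 cells of each, and in bin 15 none had that many. Age and late pseudotime therefore cannot be told apart here, and the step from bin 14 to bin 16 is also the step between the ages.

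**Figure D4:**
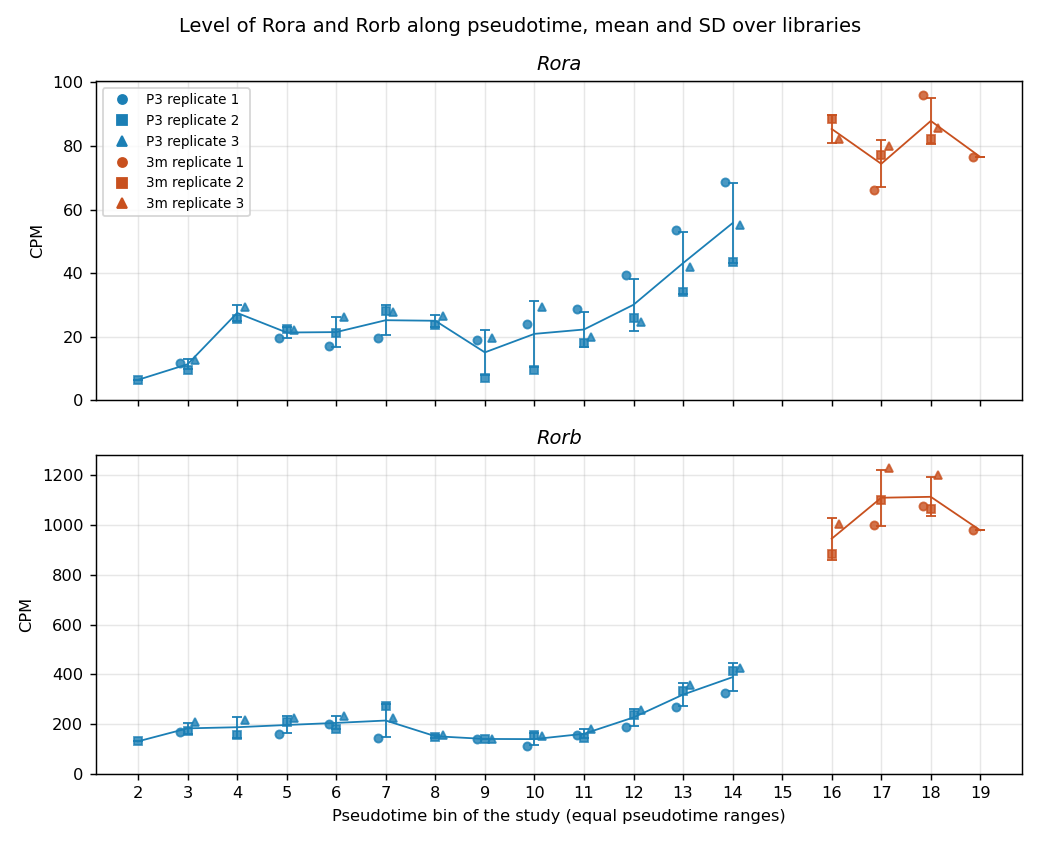
CPM of *Rora* and *Rorb* by pseudotime bin, 1 point per library with at least 20 cells, with lines through the means of each age and bars of 1 SD over libraries. P3 means increase from bin 11 (22.3 and 161) to bin 14 (55.7 and 389), and 3m means lie at 74.4 to 87.9 for *Rora* and 945 to 1113 for *Rorb*.

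Genes with the most similar patterns differed between the receptors. Over 23 clusters, with all libraries summed, *Rorb* was most like *Baalc*, *Fzd2* (a Wnt receptor), *Plpp3* (a lipid phosphatase), *Acsbg1* (an acyl-CoA synthetase) and *Slc1a3* (the glutamate transporter GLAST), with Pearson's r of 0.95 to 0.97 on log2(CPM + 1) among 7498 genes. *Rora* was most like *Ash1l* (a histone methyltransferase), *Ralgapa1*, *Vezt*, *Capn2* (a calpain protease) and *Pja2* (a ubiquitin ligase), with r of 0.88 to 0.89. Between *Rora* and *Rorb* r was 0.33. The 23 clusters include NEU_22, whose *Rora* level rests on few cells of 1 library, and LOW_20, with 0 *Rora* UMIs. Values of r without these clusters were not computed. Over the 17 astroglial sub-clusters and 5452 genes, the closest to *Rorb* were *F3* (tissue factor), *Mfap3l*, *Lsamp*, *Cldn10* (a claudin) and *Eva1a* (r of 0.93 to 0.96), and the closest to *Rora* were *Ank*, *Kidins220*, *Prxl2a*, *Fmn2* and *Cmtm5* (r of 0.94 to 0.96). The pair's r was 0.71 there. Points share libraries, and most clusters hold 1 age, so no p is given.

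The genes around the pair were read from 5 lists in the astroglial age fit: other nuclear receptors, ROR coregulators, clock genes, enzymes of sterol metabolism, and genes known as ROR-dependent in other tissues. Among all genes tested, 15.8% were called higher at 3m, 16.3% lower, and the median log2 fold change was -0.04. Clock genes had the highest median, 1.75, and coregulators lay near all genes at 0.12.

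Of 42 other nuclear receptors, 28 passed the filter on low counts. At 3m, 10 were called higher and 5 lower, with a median log2 fold change of 0.61. The REV-ERB gene *Nr1d1*, which encodes the repressor that competes with RORs, was at 14.3, 13.4 and 19.6 CPM at P3 and at 109, 94.9 and 101 CPM at 3m (log2 fold change 2.88, SE 0.18). Its partner *Nr1d2* changed by 1.80 and was also called. Hormone receptors led the increases: *Pgr* (progesterone, 4.38 on the log2 scale, from 30 UMIs at P3 and 32 at 3m), *Thrb* (thyroid hormone, 3.30) and *Nr3c2* (mineralocorticoids, 3.16). Of these receptors, 9 tested ones had a higher log2 fold change than *Rora* and 6 a higher one than *Rorb*. The immediate early receptor gene *Nr4a1* fell from 3677 UMIs at P3 to 1 UMI at 3m (CPM ratio 0.00471, 95% counting interval 0.000119 to 0.0263).

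Coregulators carry the receptors' signal to chromatin. Of the 18 listed, 17 were tested and 1 was called higher, the coactivator *Ncoa1*, at 35.0, 28.4 and 38.3 CPM at P3 and 73.4, 76.5 and 72.0 CPM at 3m. Its log2 fold change was 1.32 (SE 0.16, adjusted p = 1.68e-05, edgeR), almost that of *Rora*.

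Clock genes had the largest share of calls. All 17 were tested, and 10 were called higher and 1 lower. *Npas2* (an activator of the clock, 3.82 on the log2 scale), *Dbp* (3.09) and *Hlf* (2.49), which are clock-controlled bZIP factors, the period gene *Per3* (2.24) and *Nr1d1* (2.88, above) led. The region-by-age term was -1.60 for *Dbp* and -1.09 for *Per3* (adjusted p = 1.86e-06 and 0.000304, edgeR). Both thus had the smaller age difference outside the telencephalic lineage. *Nr1d2* (-1.05) was called in the same direction, whereas *Bhlhe41* (1.67) and *Bhlhe40* (1.17) were called the opposite way. Of 10502 genes, 849 (8.08%) were called lower for this term and 829 higher. *Per3* was -0.62 without cells that carried oligodendrocyte RNA and -0.92 without sub-cluster 16. It was -0.98 with sub-cluster 15 added and -0.95 without P3 replicate 2, in no case a call. *Dbp* was at 30.5, 33.3 and 35.3 CPM at P3 and at 276, 219 and 251 CPM at 3m. The core activators *Arntl* and *Clock* had log2 fold changes of 0.30 and 0.10 and were not called. *Nfil3*, a repressor with ROR sites, went from 285 UMIs at P3 to 3 at 3m (CPM ratio 0.182, 95% counting interval 0.0374 to 0.538). It was called lower, but without 3m replicate 3 its call was lost. Of the alternative settings that tested it, 2 gave no call. The labels give no hour of tissue collection.

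*Arntl* and *Nfil3* were the clock genes whose RefSeq promoters held TAGGTCA or TGGGTCA, 2 of 15 with a promoter entry. Of all promoters 6.45% hold either. That share is per promoter, while the count is per gene and takes a match in any of its promoters, so they are not directly comparable. The matches are printed because both genes are textbook ROR targets, with the match in capitals and *Nfil3*'s on the opposite strand.
Arntl, chr7:113207530-113207547, plus strand: aaggcagaaagTAGGTCA
Nfil3, chr13:52981040-52981062, minus strand: gcgctcggaacTGACCTActaac
The *Arntl* match lies 30 bases after the more downstream of its RefSeq starts and the *Nfil3* match 12 bases before its start. As given above, *Arntl* was not called and *Nfil3* was called lower.

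Enzymes that make or consume sterols were mixed. Of 16, 13 were tested, 3 were called higher and 2 lower, and the median log2 fold change was -0.06. *Cyp46a1* and *Cyp7b1*, which hydroxylate cholesterol and oxysterols, rose by 1.99 and 1.59 on the log2 scale. The region-by-age term of *Cyp46a1* was -2.62 (adjusted p = 0.000112, edgeR). *Ebp* (2.43) and *Dhcr7* (1.03, adjusted p = 0.04998, edgeR) of the same list were called the opposite way for that term. *Cyp51*, which demethylates lanosterol, fell from 350.2, 220.5 and 232 CPM to 70.8, 64.5 and 69.9 (log2 fold change -1.77, SE 0.20), and *Cyp39a1* went from 880 UMIs at P3 to 1 at 3m (CPM ratio 0.0197, 95% counting interval 0.000498 to 0.110). *Msmo1*, another enzyme of cholesterol synthesis, was called higher (1.17) although its ages overlapped. It was not a call in 3 of the alternative settings run, and without 3m replicate 1 its value was 0.97.

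Of 21 genes known as ROR-dependent elsewhere, 11 were tested and 6 were called higher, with a median of 1.28. The Purkinje cell genes *Pcp4* (4.38 on the log2 scale), *Calb1* (2.82, on 12 UMIs at 3m and 33 at P3) and *Itpr1* (1.73) were among them. *Lpin1* (1.30) and *G6pc3* (1.28), which act in lipid and glucose metabolism, and *Npas2* were the others. The *Pcp4* value mixes regions, since its region-by-age term was 5.13, with the larger age difference outside the telencephalic lineage (adjusted p = 6.72e-06, edgeR), and 2.63 without sub-cluster 16. *Calb1* was not a call without 3m replicate 3, and *Itpr1* and *Lpin1* each lost the call in 1 of the alternative settings. The classical cerebellar targets *Pcp2* and *Shh* were below the filter.

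**Figure D5:**
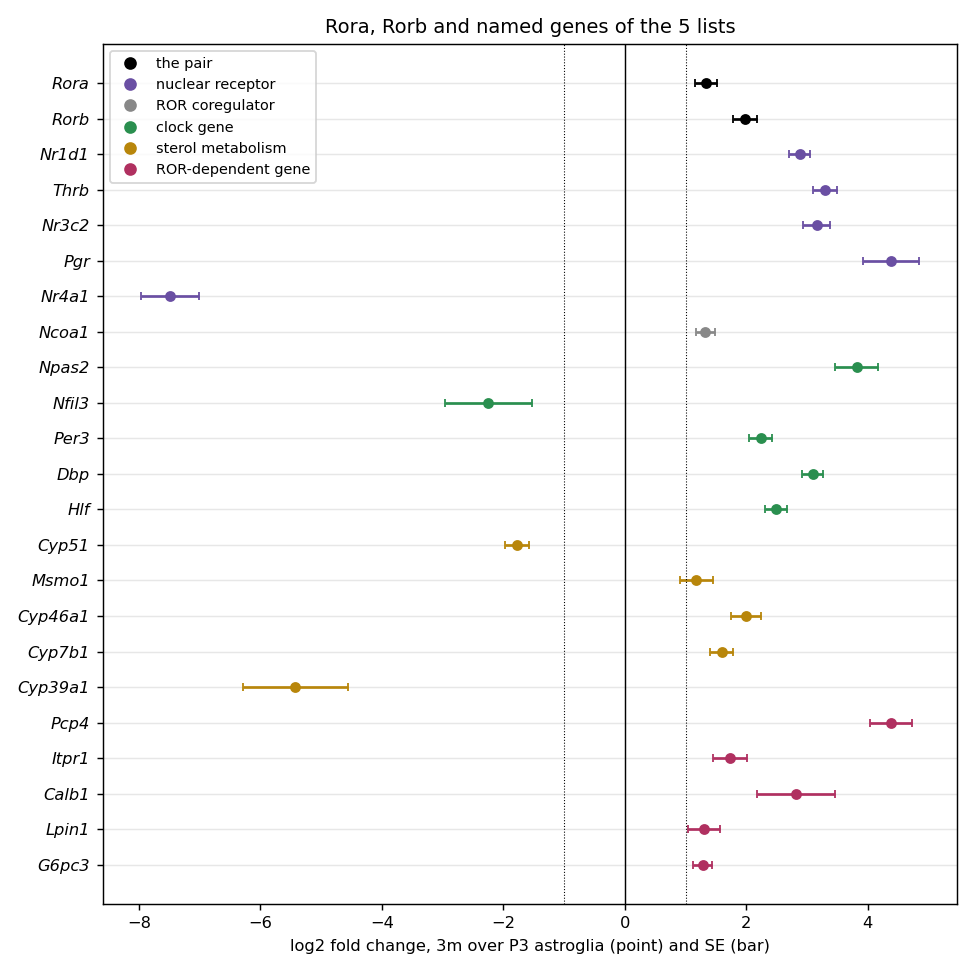
Log2 fold change (3m over P3, summed astroglia, point) with its SE (bar) for *Rora* (1.33), *Rorb* (1.97) and the named called genes of each list, coloured by list, and dotted lines at the fold threshold. *Pgr* and *Pcp4* lie farthest to the right (4.38 each) and *Nr4a1* and *Cyp39a1*, with 1 UMI each at 3m and fitted values that depend on the prior count, farthest to the left. *Nr1d1* and *Npas2*, which are in 2 lists, are drawn once.

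Members of these lists were also called lower in P3 cycling cells. Of 29 nuclear receptors tested, 7 were called lower than in other P3 astroglia, and of 17 clock genes 6 were, where 8.41% of all genes tested were. Of 13 sterol enzymes 2 were called lower and *Cyp39a1*, which hydroxylates an oxysterol, was called higher (log2 difference 1.61), as 9.31% of all genes were. *Dbp* (log2 difference -1.60), *Per3* (-1.16) and *Nr1d1* (-1.11), higher at 3m, were among those lower in cycling cells.

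Where cell types were not separated, neither receptor was called. Over all cells the log2 fold change was 0.48 for *Rora* (SE 0.14, adjusted p = 0.0175, edgeR) and 0.54 for *Rorb* (SE 0.24, adjusted p = 0.0907, edgeR), while 34.2% of 15134 genes were called in either direction. Without 3m replicate 3 the *Rorb* value was 0.25. Astroglia made up 8874 of 11188 cells at P3 and 1118 of 3185 at 3m, so these sums mix cell types in different shares. Microglia, present at both ages, had 5 *Rora* and 17 *Rorb* UMIs at P3 and 2 and 3 at 3m in libraries with at least 20 of their cells, and both genes were below the low-count filter there.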

How the data were processed

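Droplet libraries (10x 3′ chemistry) of 6 preparations, 3 per age, were analysed. The authors mapped reads to mm10 and made the deposited UMI counts with Cell Ranger, merged the libraries without normalization, and annotated cells with Seurat 3.1.1 per the labels. Clusters, astroglial sub-clusters and the Slingshot pseudotime score, which has no unit, were used as deposited by the authors and were not rebuilt. Applying the study's filter here (over 500 genes, under 10% mitochondrial UMIs) left the 14373 annotated cells. Cell barcodes were tied to ages and replicates by the sample names in the labels.

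From the counts, each library's UMIs were summed over the cells compared, and edgeR 4.0.16 (R 4.3.3) was run as its quasi-likelihood test, with TMM scaling, filterByExpr and Benjamini-Hochberg adjustment over all genes tested, two-sided. Folds are 3m over P3. Ratios and shares per library went through exact permutation tests, for which 3 against 3 libraries cannot go below p = 0.1. Cells were thinned to 2000 UMIs for shares, and intervals (Wilson for shares, exact for ratios of counts) cover counting error only. Doublets were not removed. Test code was tried on simulated counts first. The 2 members, the 5 gene lists, the markers and the tests were chosen with earlier results of these data known. Genes named are the pair, up to 6 called members of each list by size of change, and the 5 genes most like each receptor. *Nr1d2*, *Arntl*, *Clock*, *Bhlhe40*, *Bhlhe41*, *Ebp*, *Dhcr7*, *Pcp2* and *Shh* were added after their values were seen. One gene that this rule names is not reported here. DESeq2 1.42.0 and other scalings, filters and left-out libraries were run as alternatives. Gene models are from GENCODE M21.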

Additional observations from a re-analysis of the deposited data

Results flagged for a closer look

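The change of *Rorb* with age differed between the regional groups. Its log2 age difference was lower by 1.05 outside the telencephalic lineage (region-by-age term -1.05, adjusted p = 0.000892, edgeR), with *Rorb* higher at 3m in 3 of 3 telencephalic and in 2 of 3 non-telencephalic libraries than in every P3 library. RNA of oligodendrocytes moved with this term, as given with the result, and the part it has in the term was not tested beyond leaving out the cells that carry it. With sub-cluster 15 counted as non-telencephalic the term was -0.95 and not a call.

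Barcodes that failed the cell filter enter no main comparison, yet held both transcripts at 3m. They were added only in an alternative of the fit over all cells, where neither receptor was called. The 1545 failing 3m barcodes, 1461 of them over the mitochondrial limit, carried 484 *Rora* and 2692 *Rorb* UMIs. They held 24.01% of 3m UMIs but 37.3% of the *Rora* and 37.2% of the *Rorb* UMIs at that age. Their levels were 88.1, 105 and 60.7 CPM of *Rora* and 519, 379.6 and 429 CPM of *Rorb* in replicates 1 to 3, where kept 3m cells averaged 46.1 and 268 CPM and kept 3m astroglia lay at 86.2 to 93.3 and 799.9 to 1105 CPM. Astroglial markers moved with this: they summed to 11111, 10546 and 10363 CPM in the failing 3m barcodes and to 3088, 5025 and 5077 in kept 3m cells, while oligodendrocyte markers summed to 10747, 4685 and 6160 against 35840, 20173 and 16347 CPM. The part of cell type in the excess was not tested. At P3, 772 failing barcodes held 0.725% of UMIs, with 0.550% of *Rora* and 0.574% of *Rorb* UMIs.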

How the results depend on the processing

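In all astroglia both receptors were called under each of 20 alternatives, with log2 fold changes of 1.13 to 1.52 for *Rora* and 1.78 to 2.11 for *Rorb*, and no fitted value of the pair was reversed in any alternative run. The log2 *Rorb* to *Rora* ratio, 0.62 higher at 3m in all astroglia, was -0.60 in non-telencephalic sub-clusters alone. Calls near the fold threshold were lost. Telencephalic *Rora* was 0.995 with RLE scaling, 0.82 with library totals alone, 0.92 without the low-count filter and 0.93 to 1.19 with each library left out. Non-telencephalic *Rorb* was 0.96, 0.73 and 0.86 under the same 3 settings and 0.80 to 1.25 with each library left out. The region-by-age term of *Rorb* was -0.99 without the low-count filter, -0.83 without cells that carried oligodendrocyte RNA, -0.92 without sub-cluster 16, -0.95 with sub-cluster 15 added, and -1.23 to -0.89 with each library left out. *Rora* in cycling P3 cells was -1.06 to -0.97 with each library left out. The cause of these shifts was not tested. The non-telencephalic ratio and alternatives that leave out or add sub-clusters or leave out oligodendrocyte RNA within regions or shared barcodes were chosen after seeing the data.

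Library totals alone took the median gene in astroglia from -0.04 to -0.24 on the log2 scale and the calls from 2140 higher and 2204 lower to 1753 and 2790. Thinning libraries to the smallest total left fewer genes to test (9206) and 2726 calls against 4344. Outside the telencephalic lineage, calls went from 1278 higher and 1138 lower to 875 and 1952 with library totals alone and to 823 and 674 without 3m replicate 2. In telencephalic cells library totals gave 1533 higher and 2294 lower against 1899 and 1758, and over all cells 2241 and 3147 against 2693 and 2482. The age difference in shares was 4.36 percentage points for *Rora* and 4.11 for both genes at 1000 UMIs per cell, and without thinning 1.54 for *Rora*, 7.66 for *Rorb* and 1.84 for both.

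Replicate numbers in the labels do not name a shared litter or day. Deviations of libraries with the same number correlated at 0.206, 0.0993 and 0.039, so the numbers were not taken as pairs. With the replicate block *Rora* and *Rorb* were 1.32 and 1.93 in astroglia, and non-telencephalic *Rorb* was 0.92 and not a call. Low depth at 3m limits the genes with few UMIs.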

Other observations

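The same P3 library was lowest for *Rora* in each cluster that could be compared. Of 10 clusters with at least 20 cells in every P3 library and a *Rora* UMI in any of them, replicate 2 had the lowest *Rora* level in 10, and replicate 1 the highest in 8. For *Rorb*, over 11 such clusters, replicate 1 was lowest in 7 and replicate 3 highest in 7. Clusters of 1 library share its preparation and sequencing, so they are not independent, and no test was made.

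Among P3 clusters, the unidentified cluster LOW_20 had 0 *Rora* UMIs in its 90 cells of 3 libraries, where 3 UMIs would be 10.1, 9.85 and 17.4 CPM. In 3m replicate 1, 16 cells of the oligodendrocyte cluster ODC_2 had *Rorb* at 223 CPM with astroglial markers at 5763 CPM, against 24.8 and 27.6 CPM of *Rorb* with 882 and 614 CPM of those markers in the other 3m libraries.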
